A study of Homo sapiens with 15 samples.

Results

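The proteasome subunit genes were taken as every gene whose symbol is PSMA, PSMB, PSMC or PSMD followed by a number, in the 4 deposited tables of intron retention. They gave 360 introns of 36 genes, of 111143 introns listed under 11713 gene names. The PSMA family had 69 introns of 7 genes, PSMB 55 of 9, PSMC 75 of 6 and PSMD 161 of 14. The 4 tables held 344, 349, 346 and 350 of these introns for KO-1 to KO-4, of 90007, 100612, 97525 and 101710 in all, and 335 were in every table. PSMB8 was not analysed here.

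The study sequenced polyA RNA of HCT116, a colon cancer line, grown in DMEM with serum. The groups were 4 clones labelled as deficient in bktRNA1, numbered KO-1 to KO-4, and the wild-type line (WT), each with 3 libraries. Each clone is 1 isolate and there is 1 WT line, so every p-value concerns 1 clone and 1 line and not the deficiency at large. The same 3 WT libraries stand in all 4 comparisons, and the level of bktRNA1 was not analysed here. Of 9 epithelial marker genes 5 were listed, among them KRT8, KRT18 and KRT19, and EPCAM had 156 to 190 spliced reads per 1000000 after median-ratio scaling (RPM) in KO-1, 165 to 192 in KO-2, 376 to 400 in KO-3 and 203 to 295 in KO-4, against 342 to 363 in WT. KRT19 had 979 to 1151 in KO-1, 1193 to 1337 in KO-2, 1197 to 1286 in KO-3 and 1536 to 1579 in KO-4, against 868 to 921 in WT. KRT8 and KRT18 lay above WT in KO-3 (3544 to 3740, against 2390 to 2657, and 1462 to 1552, against 891 to 1127) and overlapped it in the other clones, and CDX2 had under 5 in every library. The markers thus moved in both directions, and their part in the results was not tested. Of 4 mesenchymal markers COL1A1 was measured, at 8.79 to 10.9 in KO-4, against 5.34 to 7.75 in WT. The other clones had 5.32 to 8.13, and each overlapped WT. Of 4 white blood cell markers 0 were measured here.

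The proteasome is the protease that degrades proteins tagged with ubiquitin. Its barrel is built of outer rings of alpha subunits (PSMA) and inner rings of beta subunits (PSMB), of which PSMB5, PSMB6 and PSMB7 cut the substrate. A cap of ATPases (PSMC) and further subunits (PSMD) binds, unfolds and feeds it in. Interferons induce PSMB8, PSMB9 and PSMB10, which replace the usual catalytic subunits, and the activator PSME1 with PSME2. Most human introns are removed by the major spliceosome (U2-type), and a small class with its own start and branch-site sequences is removed by the minor spliceosome (U12-type).

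Both ends of 103 subunit introns could be read from annotated transcripts, and 2 were U12-type, intron 5 of PSMA1 and intron 9 of PSMC4. The starts of these introns are shown because they set both apart from their neighbours. All sequences are 5′ to 3′ from GENCODE 29 transcripts in hg38, and capitals mark the first 8 bases, where the U12 consensus is A or G followed by TATCCTT.
PSMA1 intron 5, start (chr11:14514363-14514402, minus strand): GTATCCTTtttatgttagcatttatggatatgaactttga
PSMA1 intron 6, start (chr11:14513777-14513816, minus strand): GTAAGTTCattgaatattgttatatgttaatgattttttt
PSMC4 intron 9, start (chr19:39980455-39980494, plus strand): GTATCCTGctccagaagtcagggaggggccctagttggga
PSMC4 intron 8, start (chr19:39980147-39980186, plus strand): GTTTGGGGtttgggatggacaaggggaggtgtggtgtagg
Among all 28444 introns whose first bases could be read, 0.932% were within 1 mismatch of that consensus, and intron 9 of PSMC4 has 1 such mismatch. At the other end of the same introns, capitals mark the stretch nearest to the branch-site letters TTCCTTAAC and the final bases of the intron.
PSMA1 intron 5, end (chr11:14513888-14513927, minus strand): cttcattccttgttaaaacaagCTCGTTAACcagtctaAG
PSMC4 intron 9, end (chr19:39980622-39980661, plus strand): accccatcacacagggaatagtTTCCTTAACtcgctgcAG
The PSMC4 stretch matches in full and that of PSMA1 has 2 mismatches. Within 2 mismatches 6.94% of the 26920 introns read there hold these letters in their last 40 bases.

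Intron 5 of 9 of PSMA1, the alpha ring subunit also called alpha 6, was the subunit intron retained more in all 4 clones. It spans chr11:14513888-14514402 on the minus strand (515 bases, hg38) between coding exons. The retention level is the share of retained among retained and spliced reads, each divided by the deposited length of its form. It was 13.4%, 11.9% and 13.3% in the KO-1 libraries, 9.63%, 9.66% and 9.07% in KO-2, 8.76%, 7.73% and 8.16% in KO-3 and 7.03%, 6.80% and 7.79% in KO-4, against 4.603%, 4.77% and 3.89% in WT. All 12 clone libraries were higher than all 3 WT libraries. On the log2 odds scale KO-1 changed by 1.67 ± 0.13 (SE), KO-2 by 1.17 ± 0.13, KO-3 by 0.95 ± 0.14 and KO-4 by 0.74 ± 0.14 (n = 3 libraries a group). The adjusted p of the quasi-binomial F test were 1.8e-16, 1.6e-09, 1.2e-06 and 0.00023. With limma on log2 odds, the calls of KO-3 and KO-4 were lost (adjusted p = 0.11 and 0.17). The retained reads behind these levels averaged 259, 271, 245 and 212 per library in KO-1 to KO-4 and 148 in WT. Among the 4 clones the levels differed as well (adjusted p = 5.6e-10, quasi-binomial F test).

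Intron 6 of PSMA1 follows after exon 6 of 71 bases and is U2-type by its ends. It is 117 bases long (chr11:14513700-14513816, minus strand) and is shown whole, with its first and last bases in capitals, as the short neighbour whose level moved beside that of intron 5.
PSMA1 intron 6: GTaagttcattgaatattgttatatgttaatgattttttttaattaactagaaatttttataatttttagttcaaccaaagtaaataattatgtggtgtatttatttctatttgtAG
Its libraries had 3.92%, 4.38% and 4.80% in KO-1, 3.95%, 3.72% and 3.35% in KO-2, 2.80%, 2.15% and 1.97% in KO-3 and 1.75%, 1.96% and 1.77% in KO-4, against 1.30%, 1.06% and 1.08% in WT. No clone library overlapped WT here either. The log2 odds changed by 1.98 ± 0.24 for KO-1, 1.72 ± 0.24 for KO-2 and 1.05 ± 0.25 for KO-3 (SE, adjusted p = 8.1e-10, 8.3e-08 and 0.013). The call in KO-3 was lost without its library listed 1st (adjusted p = 0.30) and without the WT library listed 2nd (adjusted p = 0.070), and with limma on log2 odds (adjusted p = 0.25). In KO-4 the change of 0.69 ± 0.25 did not pass (adjusted p = 0.15). The clones differed among themselves at an adjusted p of 4.2e-08.

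**Figure D1:**
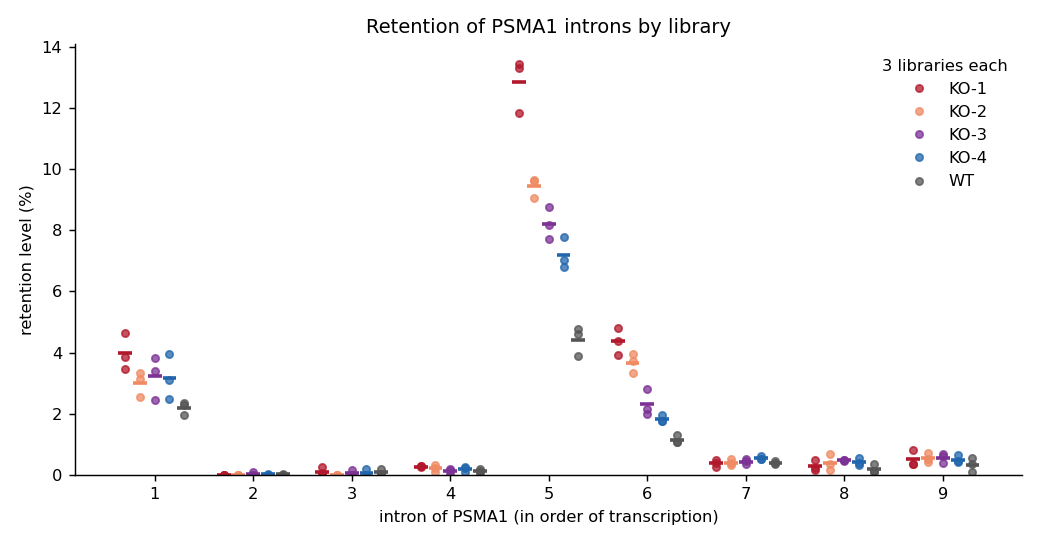
Retention level (%) of the 9 introns of PSMA1 in order of transcription, with 1 point per library and a bar at the mean of each group of 3. Intron 5 reaches 11.9% to 13.4% in KO-1 against 3.89% to 4.77% in WT, intron 6 is higher in every clone library than in WT, and introns 2 to 4 and 7 to 9 have group means under 1% in all 5 groups.

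Of the other introns of the PSMA1-201 transcript, intron 1 was retained more than intron 6 in KO-3, KO-4 and WT, and introns 2 to 4 and 7 to 9 were less retained than both. Intron 1 (chr11:14519042-14520296), whose reads are shared with the overlapping gene AC018523.2, stood at 3.47%, 3.85% and 4.64% in KO-1, against 2.34%, 2.30% and 1.95% in WT. Its log2 odds changed by 0.87 ± 0.23 in KO-1 (SE, adjusted p = 0.034), while the changes of 0.46, 0.58 and 0.54 in KO-2 to KO-4 did not pass (adjusted p = 0.44, 0.39 and 0.25). The call in KO-1 was lost without the WT library listed 1st or any 1 of the KO-1 libraries (adjusted p from 0.076 to 0.28). Intron 7 had means of 0.377%, 0.398%, 0.428% and 0.546% for the clones in order and 0.401% for WT. Introns 2, 3, 4, 8 and 9 had too few retained reads to be tested in any clone.

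Both PSMA1 introns would interrupt the reading frame. Read on from the coding exons, intron 5 holds its first in-frame stop after 16 whole codons and intron 6 after 9. Spliced reads across intron 5 stood at 109%, 114% and 99.6% of the median of 7 other PSMA1 introns in KO-1, against 119%, 127% and 138% in WT. The groups do not overlap in KO-1. KO-2 averaged 122% ± 5.3, KO-3 122% ± 2.6 and KO-4 127% ± 3.4, beside 128% ± 9.7 in WT (SD, n = 3 each), differences within the SD of WT. An annotated exon of AC018523.2 reaches a short way into intron 5, and its part in the boundary reads was not tested.

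Intron 9 of 10 of PSMC4, an ATPase of the cap, is the other U12-type intron (chr19:39980455-39980661, plus strand, 207 bases). It stood at 2.60%, 3.498% and 3.22% in KO-1, 1.82%, 2.25% and 1.32% in KO-2, 2.07%, 1.66% and 1.45% in KO-3 and 1.44%, 1.40% and 1.55% in KO-4, against 2.56%, 1.34% and 1.73% in WT. KO-1 lay above WT in every library and the other 3 clones overlapped it. No change passed. On the log2 odds scale KO-1 changed by 0.79 (95% interval 0.14 to 1.43), KO-2 by -0.06 (-0.76 to 0.64), KO-3 by -0.08 (-0.77 to 0.60) and KO-4 by -0.34 (-1.05 to 0.37) (adjusted p = 0.32, 0.97, 0.97 and 0.74). Each interval ends below the change of PSMA1 intron 5 in the same clone. In KO-1 it overlaps the 95% interval of that change (1.40 to 1.93). The difference was not tested, and PSMC4 intron 9 had mean retained reads of 17.3 to 27.3 per library. Its U2-type neighbour, intron 8, had means of 5.67%, 5.64%, 4.97% and 4.99% for the clones in order and 5.44% for WT, with no change past the threshold.

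Across the whole complex few introns passed the threshold. Testing needed means of 10 or more retained reads and 10 or more spliced ones, over clone and WT libraries together. This was met by 114, 134, 123 and 133 subunit introns for KO-1 to KO-4. KO-1 had 4 of them higher (3.51%, against 1.29% of all introns tested) and KO-2 had 4 (2.99%, against 1.3%). KO-3 had 3 (2.44%, against 0.558%) and KO-4 had 5 (3.76%, against 1.54%). These are counts of 3 to 5 introns. None was lower, where 0.175%, 0.304%, 0.155% and 0.429% of all introns were. At an unadjusted p under 0.05 in the quasi-binomial test 22, 21, 11 and 31 were higher and 0, 3, 2 and 2 lower. The change was above 0 in 89, 91, 70 and 105 of those tested. The matching shares of all introns are not given here, and the median change of all introns was also above 0 in each clone. These counts are thus no trait of the subunits. By adjusted p, limma on log2 odds called none lower in any clone, while the authors' deposited adjusted p gave KO-2 and KO-4 1 lower intron each. The calls fell on 8 introns of 5 genes, and 5 of these introns overlap an annotated exon. The median change of all tested subunit introns was 0.32, 0.24, 0.07 and 0.38 on the log2 odds scale, beside 0.13, 0.10, 0.02 and 0.17 for all introns tested.

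The counts varied with the libraries used. Over the 111 subunit introns tested in every comparison the median retention was 1.75% to 1.82% in the KO-1 libraries, 1.65% to 2.17% in KO-2, 1.35% to 1.84% in KO-3 and 1.77% to 2.08% in KO-4, against 1.51%, 1.15% and 1.81% in WT. The WT libraries listed 1st and 3rd lay within the range of the clones, and that listed 2nd lay below every clone library. Without the WT library listed 3rd 6, 8, 4 and 13 subunit introns were higher for KO-1 to KO-4. Without the WT library listed 2nd KO-2 had 2, KO-3 had 1 and KO-4 had 3, and without the library listed 1st of the clone itself the counts were 2, 2, 1 and 2. KO-1 also had 2 without its library listed 2nd, and KO-4 had 2 without its library listed 3rd.

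**Figure D2:**
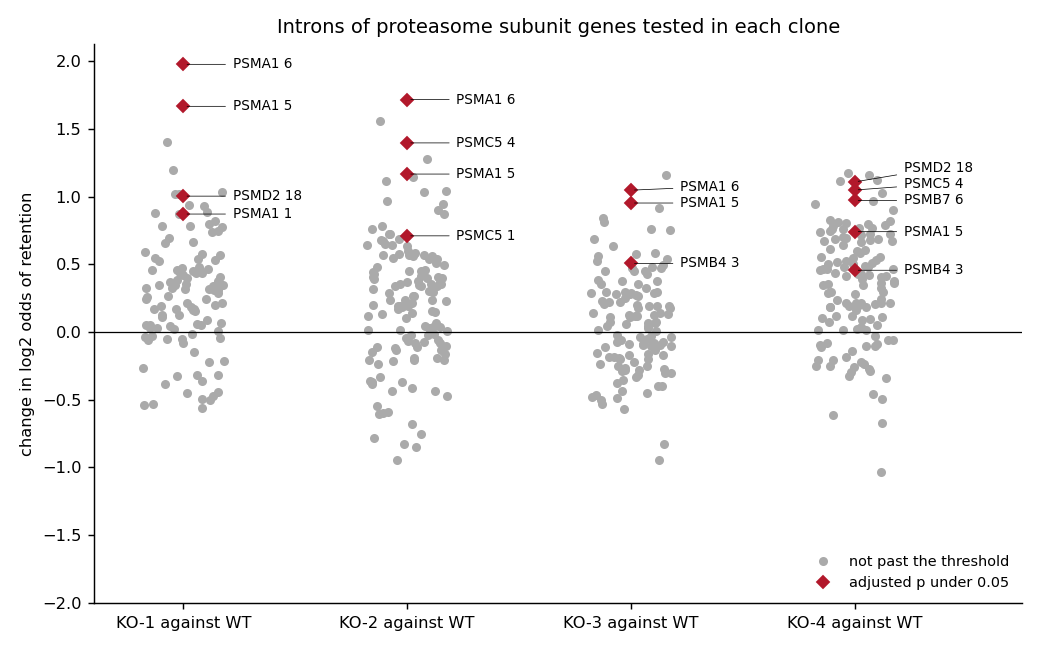
Change in the log2 odds of retention for every subunit intron tested in each clone against WT, with red diamonds for introns past an adjusted p of 0.05, labelled by gene and intron number. The 16 red points are all above 0, PSMA1 intron 5 is among them in each clone, and PSMA1 intron 6 is the highest red point in KO-1, KO-2 and KO-3.

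In the beta rings, intron 3 of 6 of PSMB4 (chr1:151400589-151400763), a beta ring subunit without protease activity, was higher in KO-3 and KO-4. It had 4.65%, 6.13% and 4.30% in KO-3 and 4.93%, 4.31% and 5.47% in KO-4, against 3.404%, 3.59% and 3.84% in WT. The libraries did not overlap, and the changes were 0.51 ± 0.13 and 0.46 ± 0.13 (SE, adjusted p = 0.045 and 0.033), which the authors' deposited adjusted p did not call (0.090 and 0.091). KO-1 averaged 4.54% ± 1.1 and KO-2 4.43% ± 0.62 (SD, n = 3 each), and their changes of 0.35 and 0.30 did not pass (adjusted p = 0.32 and 0.33). Both calls were also lost without any 1 of several libraries, among them the WT libraries listed 1st and 2nd (adjusted p = 0.27 and 0.15 for KO-3, 0.16 and 0.086 for KO-4). Intron 6 of 7 of the catalytic subunit PSMB7 (27682 bases, chr9:124356916-124384597) had 2.94%, 2.95% and 3.26% in KO-4, against 1.65%, 1.18% and 1.99% in WT. Its change in KO-4 was 0.97 ± 0.24 (SE, adjusted p = 0.0089), and was lost without the WT library listed 2nd (adjusted p = 0.12) or the KO-4 library listed 3rd (adjusted p = 0.059). The changes of 0.70 in KO-1, where every library was above WT, 0.48 in KO-2 and -0.27 in KO-3 did not pass (adjusted p = 0.26, 0.51 and 0.89). Both introns have under 7% retention in every library.

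In the cap, an intron of PSMC5, another ATPase, is used in the transcript PSMC5-213 (intron 4, chr17:63829950-63830270). Its level was 71.8%, 60.3% and 56.8% in KO-2 and 56.8%, 54.9% and 61.7% in KO-4, against 43.9%, 34.9% and 40.6% in WT. Both clones lay above WT, with changes of 1.40 ± 0.33 and 1.05 ± 0.29 (SE, adjusted p = 0.0065 and 0.032). KO-1 also lay above WT, at 51.6%, 49.6% and 69.2%, with a change of 0.89 ± 0.33 (SE) that did not pass (adjusted p = 0.22), and KO-3 overlapped WT at 44.2%, 45.2% and 37.4% (0.19, adjusted p = 0.94). Without the WT library listed 2nd neither passed (adjusted p = 0.053 and 0.16), nor without the clone's library listed 1st (adjusted p = 0.20 and 0.12). An annotated exon overlaps this intron, and its retained reads were near the WT number (93.3 per library in KO-2 and 108 in KO-4, against 93.7 in WT), while its spliced reads were 27.0 and 39.7, against 71.3. Intron 1 of 11 of PSMC5-201 (chr17:63827515-63828137) had 10.98%, 10.2% and 10.3% in KO-2, against 6.84%, 5.35% and 8.20% in WT (0.71 ± 0.18 SE, adjusted p = 0.016), a call that ended when the WT library listed 2nd (adjusted p = 0.20) or 1st (adjusted p = 0.067), or either of the first KO-2 libraries (adjusted p = 0.096 and 0.071), was left out. Its changes of 0.31, 0.25 and 0.48 in KO-1, KO-3 and KO-4 did not pass (adjusted p = 0.63, 0.82 and 0.17).

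PSMD2, a scaffold of the cap that receives ubiquitin-bearing substrates, was higher in intron 18 of 20 (chr3:184307709-184307889). The level was 1.78%, 2.58% and 1.65% in KO-1 and 2.698%, 1.65% and 2.24% in KO-4, against 1.17%, 0.908% and 1.05% in WT. The changes were 1.00 ± 0.26 and 1.11 ± 0.24 (SE, adjusted p = 0.024 and 0.0015). The call in KO-1 was lost without its library listed 2nd (adjusted p = 0.50) or 1st (adjusted p = 0.070) or the WT library listed 2nd (adjusted p = 0.079), and that in KO-4 without its library listed 1st (adjusted p = 0.079). In KO-2 and KO-3 the same intron had 1.64% ± 0.25 and 1.43% ± 0.15 (SD, n = 3 each), and neither change passed (adjusted p = 0.18 and 0.64). Of the calls in PSMB4, PSMB7, PSMC5 and PSMD2, limma on log2 odds kept that of PSMC5-213 in KO-2, and centring on the median intron kept it and that of PSMD2 in KO-4.

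Subunit introns were mostly well spliced. In WT the median over the introns in all 4 tables was 0.465%, against 1.27% for all introns, and 85.7% of subunit introns were under 5%, against 72.9%. The family medians in WT were 0.337% for PSMA, 0.498% for PSMB, 0.506% for PSMC and 0.457% for PSMD. In WT 36 subunit introns were over 20% (10.75%, against 15.45% of all introns). Of these 31 overlap an annotated exon whose part in their boundary reads was not tested. Of all 360 subunit introns 138 overlap one. Among the 111 introns tested in all 4 comparisons, the highest by family in WT were intron 3 of PSMA4-219 with 96.2%, 95.2%, 97.3% and 95.6% for the clones in order and 96.7% for WT, and intron 1 of PSMA4-206 with 67.9%, 71.6%, 68.1% and 65.8%, against 75.7%. In the PSMB family they were intron 4 of PSMB10 (31.5%, 17.3%, 24.4% and 25.8%, against 28.6%) and intron 3 of PSMB5-205 (29.1%, 26.1%, 31.0% and 35.8%, against 22.2%). In the PSMC family intron 1 of PSMC5-202 (49.4%, 49.6%, 46.0% and 51.3%, against 50.7%) came before intron 4 of PSMC5-213. In the PSMD family they were intron 13 of PSMD11-212 (90.3%, 86.8%, 89.9% and 90.9%, against 89.5%) and intron 4 of PSMD10-204 (87.4%, 88.1%, 83.1% and 85.3%, against 84.4%). Of these 8, intron 4 of PSMC5-213 passed the threshold, in KO-2 and KO-4.

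Many subunit introns had too few retained reads for a test. Of the 360 introns 222 were tested in no comparison. Of these 195 had a mean under 10 retained reads in the WT libraries, and the median retention of the 222 in WT was 0.181%. Over the introns in all tables KO-1 libraries held 17287797 to 20454252 retained and spliced reads and the other clones 27092050 to 35348260, against 28650487 to 34001726 in WT. Retained reads were 12.9% to 13.7% of these in the clones and 12.3% to 13.3% in WT.

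Levels of the subunits themselves were read from spliced reads. At the intron of each gene with the most spliced reads, which needs no gene length, WT libraries ran from 2.09 ± 0.45 RPM for PSMB9 to 141 ± 9.2 for PSMA7 (SD, n = 3). The median was 63.3 in the PSMA family, 76.9 in PSMB, 47.1 in PSMC and 34.4 in PSMD. Below PSMA7 came PSMB1 (116 ± 7.8), PSMA4 (101 ± 3.6), PSMB4 (97.5 ± 3.9) and PSMB6 (96.9 ± 7.9), of which PSMB4 and PSMB6 lie within their spread. At the low end stood PSMD5, a chaperone of cap assembly (7.94 ± 0.61), PSMB10 (12.1 ± 1.4) and PSMD9, another such chaperone (14.6 ± 0.68). The usual catalytic subunits PSMB5, PSMB6 and PSMB7 had 58.2, 96.9 and 64.6.

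**Figure D3:**
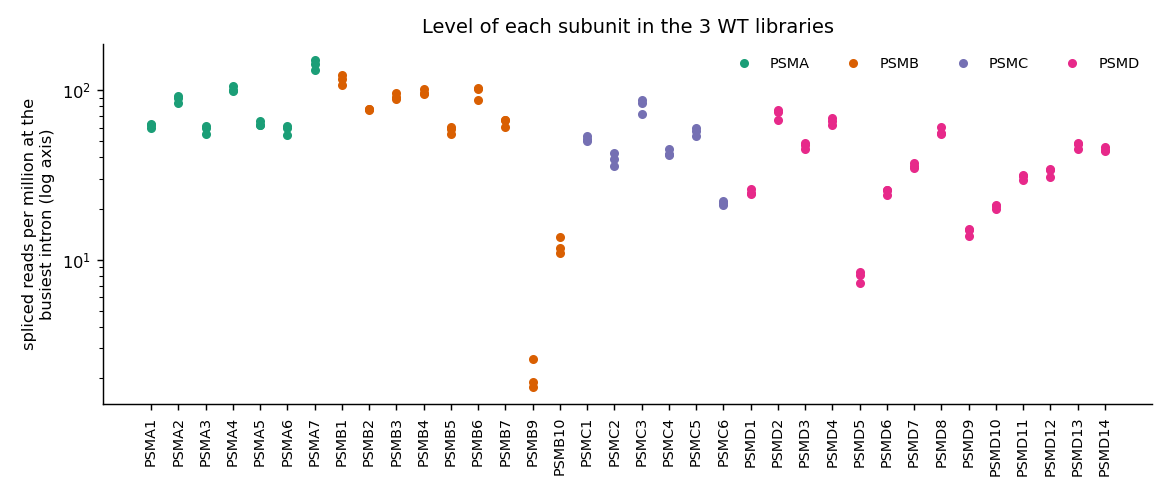
Spliced reads (RPM) at the intron with the most spliced reads of each of the 36 subunit genes (log axis), with 1 point for each of the 3 WT libraries, coloured by family. PSMB9 lies lowest at 2.09 on average, PSMD5 and PSMB10 follow, and PSMA7 is highest at 141.

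Spliced reads summed per gene were lower for many subunits in KO-2 and KO-4 and for few in KO-1 and KO-3. All 36 genes were tested among 9471. KO-1 had 7 higher and 1 lower (19.4% and 2.78%, against 13.8% and 12.4% of all genes). KO-2 had 2 higher and 23 lower (5.56% and 63.9%, against 21.9% and 21.1%). KO-3 had 3 higher and 0 lower (8.33% and 0%, against 15% and 15.6%), and with library totals in place of the median ratio this became 0 higher and 6 lower. Its count of 3 higher was 0 without the WT library listed 3rd and 5 without that listed 2nd, and the 7 higher in KO-1 were 2 without the WT library listed 3rd or the KO-1 library listed 2nd. Without the KO-3 library listed 3rd 1 was higher in KO-3, and the 1 lower in KO-1 became 0 when the 1st or 2nd WT library or the 3rd of KO-1 was left out. KO-4 had 2 higher and 18 lower (5.56% and 50%, against 24.6% and 24.2%). The 2 higher in KO-2 became 1 when the 1st or 3rd WT library or the 1st or 2nd of KO-2 was left out. The 2 higher in KO-4 became 0 when the 3rd WT library or the 1st of KO-4 was left out, and 1 when the 2nd WT library, any 1 library of KO-1 or KO-2, or the 2nd or 3rd of KO-4 was left out. With 1 library left out (the WT library listed 1st or 3rd, KO-1 1st or KO-3 2nd) 1 gene was lower in KO-3. The median log2 change was 0.03, -0.16, 0.06 and -0.10 for the clones in order, beside 0.00 for all genes in each. The genes called lower moved by 0.13 to 0.35 in KO-2 and by 0.11 to 0.40 in KO-4, on the log2 scale. In these bulk samples fewer cells of a type and less RNA per cell cannot be told apart. Retained reads were 6.29% to 6.68% of the subunit reads in KO-2 and 6.41% to 6.64% in KO-4, against 5.75% to 6.34% in WT. KO-1 and KO-3, with 1 and 0 genes lower, had 6.15% to 6.44% and 6.215% to 6.35%. The part of less complete splicing in the lower sums was not tested.

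As a share of all spliced reads in a library, the subunit introns took 10.3, 10.7 and 10.3 of every 1000 in KO-2 and 10.9, 11.1 and 10.99 in KO-4, against 11.6, 12.05 and 11.6 in WT. These clones lay below WT in every library. KO-1 had 12.1, 12.1 and 11.8 and KO-3 had 11.2, 11.7 and 11.45, both overlapping WT.

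**Figure D4:**
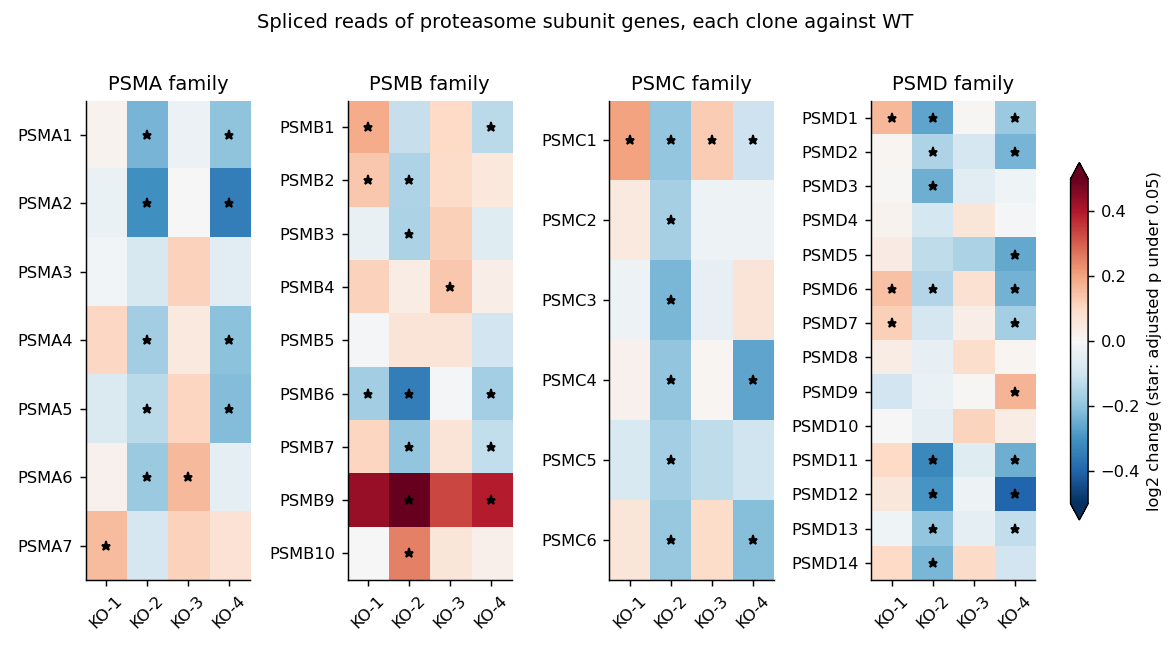
Log2 change of summed spliced reads for the 36 subunit genes by family, with clones in columns and stars at an adjusted p under 0.05 (limma). The KO-2 and KO-4 columns are mostly blue (lower), with 23 and 18 genes lower, KO-1 and KO-3 hold 1 and 0 (with library totals KO-3 has 0 higher and 6 lower), and PSMB9 is red in every column (1.44 in KO-2, past the colour range).

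In the alpha ring 5 of 7 genes were lower in KO-2 and 4 in KO-4. PSMA4, an alpha ring subunit, fell by 0.17 in KO-2 and 0.21 in KO-4 on the log2 scale (SE 0.047, adjusted p = 0.0046 and 0.0010 by limma) and PSMA5, another, fell by 0.13 in KO-2 and 0.22 in KO-4 (adjusted p = 0.032 and 0.00097). PSMA1 had 352, 372 and 365 RPM in KO-2 and 369, 372 and 370 in KO-4, against 431, 416 and 432 in WT (log2 change -0.23 and -0.20, adjusted p = 0.00022 and 0.00074). In KO-1, the clone with the highest retention of its intron 5, PSMA1 had 448, 422 and 424, and the change of 0.02 ± 0.045 (SE) did not pass (adjusted p = 0.82). PSMA2, chosen after its values were seen, changed by -0.31 in KO-2 and -0.35 in KO-4. PSMA6 and PSMA7, chosen in the same way, were higher in KO-3 (0.16) and in KO-1 (0.16). The call of PSMA5 in KO-2 ended without the WT library listed 2nd (adjusted p = 0.19) or the KO-2 library listed 1st (adjusted p = 0.13) or 3rd (adjusted p = 0.098).

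Among the beta subunits the catalytic PSMB6 was lower in 3 clones. It had 272, 286 and 252 RPM in KO-1, 233, 251 and 233 in KO-2, 304, 302 and 303 in KO-3 and 270, 273 and 267 in KO-4, against 317, 314 and 281 in WT. KO-2 and KO-4 lay below every WT library and KO-1 overlapped the lowest one. The log2 changes were -0.17, -0.35, 0.00 and -0.17 (SE 0.053, adjusted p = 0.019, 1.5e-05, 0.97 and 0.011). The calls in KO-1 and KO-4 were lost without the WT library listed 1st (adjusted p = 0.082 and 0.057) or 2nd (adjusted p = 0.080 and 0.054). PSMB7 was lower in KO-2 (-0.20, adjusted p = 0.0032) and KO-4 (-0.12, adjusted p = 0.048), the call in KO-4 being lost with library totals (adjusted p = 0.099). PSMB5 passed in no clone, at -0.01, 0.07, 0.06 and -0.10 (SE 0.052, adjusted p from 0.13 to 0.94). PSMB1, a beta subunit without protease activity, was higher in KO-1 (0.19) and lower in KO-4 (-0.14), and PSMB2, another such subunit, was higher in KO-1 (0.13) and lower in KO-2 (-0.16). Single libraries left out ended the calls of PSMB1 in KO-1 (adjusted p up to 0.080, the WT library listed 3rd) and KO-4 (up to 0.20, the WT library listed 1st), of PSMB7 in KO-4 (up to 0.20, the WT library listed 2nd) and of PSMB2 in KO-1 (up to 0.092, the KO-1 library listed 1st).

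PSMB9, the interferon-induced counterpart of PSMB6, went the other way. It had 6.35, 7.22 and 7.43 RPM in KO-1, 13.7, 15.8 and 12.6 in KO-2, 6.26, 5.93 and 7.38 in KO-3 and 8.66, 7.09 and 5.08 in KO-4, against 6.25, 4.90 and 4.48 in WT. KO-2 stood far above WT, and KO-3 and KO-4 overlapped it. The log2 change was 1.44 ± 0.16 in KO-2 (SE, 2.71-fold, adjusted p = 2.9e-07). KO-1 changed by 0.44 (adjusted p = 0.051), KO-3 by 0.33 (adjusted p = 0.13) and KO-4 by 0.39 (adjusted p = 0.049), a call lost with voom weights (adjusted p = 0.051) and without the KO-4 library listed 1st (adjusted p = 0.31). PSMB9 rested on 119 to 165 reads per WT library over 3 introns.

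The summed reads of PSMB10, the interferon-induced counterpart of PSMB7, differed along the gene, a pattern chosen after its values were seen and not tested. Introns 5 to 7 took most reads, with intron 5 at means of 10.9, 12, 11.7 and 10.8 RPM for the clones in order and 12.1 for WT. Introns 1, 2 and 4 averaged 0.972, 1.04 and 1.03 in WT. Intron 1 had 3.27, 3.25 and 2.14 in KO-2 and 3.81, 3.01 and 2.06 in KO-4, against 1.07, 0.868 and 0.981 in WT. Intron 2 had 3.39, 2.995 and 2.17 in KO-2 and 3.07, 2.76 and 1.98 in KO-4, against 1.11, 1.10 and 0.903 in WT. In both introns these clones and KO-1 lay above every WT library, and KO-3 overlapped WT. KO-1 averaged 1.502 at intron 1 and 1.30 at intron 2, and KO-3 averaged 1.38 and 1.47. Introns 4, 5 and 7 are also listed for the overlapping gene AC040162.1. Summed over the gene, PSMB10 changed by 0.25 ± 0.099 in KO-2 (SE, adjusted p = 0.042), and by -0.038 when the intron with the most spliced reads was taken alone (adjusted p = 0.83). The call was also lost without the WT library listed 3rd (adjusted p = 0.18).

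In the cap all 6 ATPase genes were lower in KO-2 and 3 in KO-4. PSMC1, an ATPase also called Rpt2, was the subunit gene called in every clone. It had 336, 326 and 325 RPM in KO-1, 244, 258 and 250 in KO-2, 309, 313 and 315 in KO-3 and 267, 270 and 262 in KO-4, against 282, 298 and 280 in WT. KO-1 and KO-3 lay above WT and KO-2 and KO-4 below it. The log2 changes were 0.20, -0.19, 0.12 and -0.11 (SE 0.043, adjusted p = 0.0012, 0.00077, 0.030 and 0.045). With library totals the calls in KO-3 and KO-4 were lost (adjusted p = 0.36 and 0.14), as they were without the WT library listed 1st (adjusted p = 0.082 and 0.055). PSMC4, named for its U12-type intron, changed by -0.20 in KO-2 and -0.26 in KO-4.

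Of the 14 PSMD genes 8 were lower in KO-2 and 8 in KO-4. PSMD1, a scaffold of the cap, had 349, 352 and 344 RPM in KO-1, 252, 259 and 263 in KO-2, 311, 316 and 308 in KO-3 and 274, 269 and 276 in KO-4, against 300, 321 and 311 in WT. KO-1 lay above WT, KO-2 and KO-4 below it, and KO-3 within it. The log2 changes were 0.17, -0.27, 0.01 and -0.18 (SE 0.042, adjusted p = 0.0049, 2.3e-05, 0.91 and 0.00093). PSMD11, a subunit of the lid, had 250, 246 and 248 in KO-2 and 259, 267 and 259 in KO-4, against 306, 313 and 311 in WT (-0.32 and -0.24, adjusted p = 3.1e-06 and 7.1e-05). PSMD6, also of the lid, was higher in KO-1 (0.15) and lower in KO-2 (-0.15) and KO-4 (-0.24), and its calls in KO-1 and KO-2 ended without single libraries (adjusted p up to 0.13 without the WT library listed 3rd, and 0.11 without the KO-2 library listed 3rd). PSMD12, chosen after its values were seen, had the lowest change in KO-4, -0.40, and -0.29 in KO-2. PSMD9, also chosen so, was the PSMD gene higher in KO-4 (0.17, adjusted p = 0.026).

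The clones differed among themselves. In an F test over the 4 clones 31 of 36 subunit genes differed (86.1%, against 75.4% of all genes). For introns it was 11 of 122 (9.02%, against 6.41% of all introns tested).

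Genes that act with the proteasome were described by a list of 40, of which 37 were tested. For the clones in order 8, 4, 5 and 7 were higher and 0, 5, 7 and 9 lower, where 13.8%, 21.9%, 15% and 24.6% of all genes were higher and 12.4%, 21.1%, 15.6% and 24.2% lower. As shares of the 37, the counts were above these for higher genes in KO-1 and lower genes in KO-3, and near or below them otherwise. The activator genes PSME1 and PSME2 had the largest rises of the pathway genes named here. PSME1 had 337, 355 and 375 RPM in KO-1, 589, 613 and 558 in KO-2, 473, 455 and 472 in KO-3 and 404, 434 and 390 in KO-4, against 340, 301 and 319 in WT. KO-2, KO-3 and KO-4 lay above every WT library. The log2 changes were 0.15, 0.87, 0.55 and 0.36 (SE 0.054, adjusted p = 0.042, 2.7e-11, 1.2e-07 and 1.2e-05), that in KO-1 being lost with library totals (adjusted p = 0.067). PSME2 had 464, 476 and 421 in KO-2 and 376, 380 and 385 in KO-3, against 298, 283 and 278 in WT. Its changes were -0.01, 0.66, 0.41 and 0.12 (SE 0.051), called in KO-2 and KO-3 (adjusted p = 8.6e-10 and 3.3e-06).

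**Figure D5:**
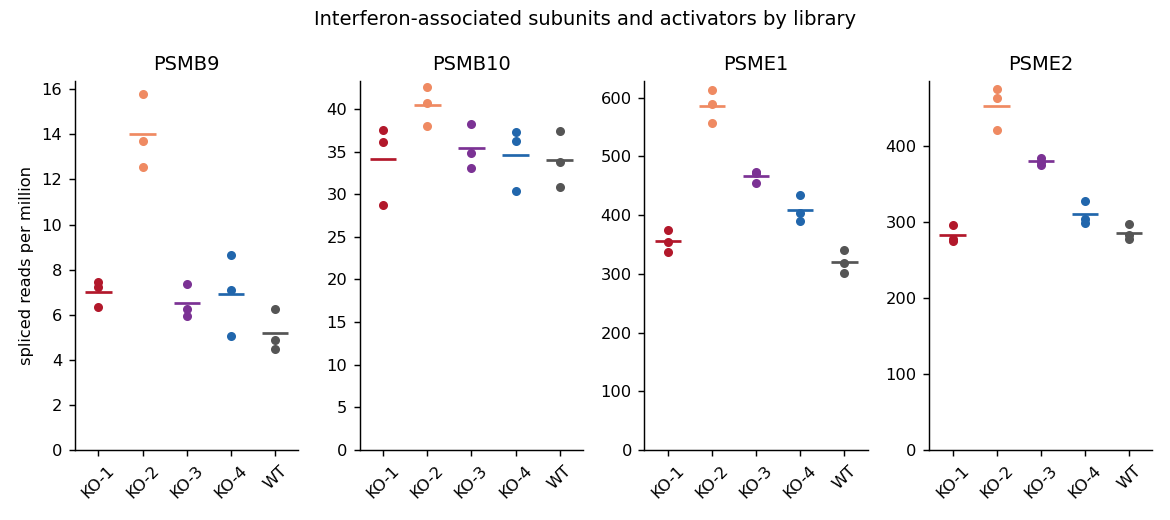
Summed RPM of PSMB9, PSMB10, PSME1 and PSME2, with 1 point per library and a bar at each group mean. KO-2 is the highest group in all 4 panels, with PSME1 at 558 to 613 against 301 to 340 in WT, and KO-3 lies above WT for PSME1 and PSME2.

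Among the others, the assembly chaperone PSMG1 was lower in KO-2 (-0.44) and KO-4 (-0.42), and the chaperone POMP was higher in KO-1 (0.16) and lower in KO-4 (-0.16). The ubiquitin-activating enzyme UBA1 was higher in KO-1 (0.14), KO-2 (0.17) and KO-4 (0.21). NPLOC4, a cofactor of the segregase p97, was higher in KO-1 (0.25) and lower in KO-2 (-0.17) and KO-3 (-0.43). The ligase UBE3C was higher in KO-1 (0.17) and KO-4 (0.15) and lower in KO-3 (-0.14). The deubiquitinase USP14 was lower in KO-3 (-0.17) and KO-4 (-0.18). At the intron with the most spliced reads alone, the calls of UBE3C and USP14 were lost (adjusted p from 0.25 to 0.81), with UBE3C in KO-1 at -0.081. So were those of UBA1 and POMP in KO-1 and NPLOC4 in KO-1 and KO-2 (adjusted p from 0.050 to 0.46). Single libraries left out ended the calls of PSME1 and UBA1 in KO-1, NPLOC4 in KO-2, UBE3C in KO-1, KO-3 and KO-4, USP14 in KO-3 and KO-4 and POMP in KO-1 and KO-4, with adjusted p up to 0.32. Of all genes 12.4%, 21.1%, 15.6% and 24.2% were lower for the clones in order. Of 5 genes tested for the transcriptional control of subunit genes, 0, 1, 2 and 1 were lower. These calls, named after their values were seen, were NFE2L3 in KO-2 (-0.53, adjusted p = 0.00073) and KO-3 (-0.64, adjusted p = 0.00025), NFE2L1 in KO-3 (-0.19, adjusted p = 0.021) and NGLY1 in KO-4 (-0.17, adjusted p = 0.049), all by limma. NFE2L2 in KO-3 changed by 0.19 and did not pass (adjusted p = 0.068). In KO-2 and KO-4 a count of 1 in 5 is near the share of all genes.

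Of the introns of this list tested, KO-1 had 3 of 96 higher, KO-2 1 of 116, KO-3 2 of 114 and KO-4 0 of 114 by the quasi-binomial test, where 1.29%, 1.3%, 0.558% and 1.54% of all introns were, and each had 0 lower. KO-1 and KO-3 thus lay above the share of all introns and KO-2 and KO-4 below it. Counts of 0 to 3 are too small to be a result about the list. The intron called in several clones was a U12-type intron of UFD1, the partner of NPLOC4 (chr22:19465275-19467872). It had 4.02%, 3.93% and 5.70% in KO-1, 2.25%, 2.24% and 2.21% in KO-2, 2.59%, 2.24% and 2.02% in KO-3 and 1.29%, 1.01% and 0.864% in KO-4, against 0.430%, 0.278% and 1.20% in WT. KO-1 to KO-3 lay above WT and KO-4 overlapped it. Its changes were 2.95 ± 0.41, 1.91 ± 0.41 and 1.94 ± 0.41 (SE, adjusted p = 2.0e-09, 0.00085 and 0.0010), and 0.81 ± 0.43 in KO-4 did not pass (adjusted p = 0.38). The WT mean was low and variable, at 0.636% ± 0.49 (SD, n = 3). Other settings and left-out libraries were not checked for this intron.

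Promoters were searched on both strands, from 250 bases before to 50 after the start, for the core letters of 2 elements known to act on these genes. RefSeq (GRCh38.p14) gave promoters for 31 of the subunit genes. TGACNNNGC, the core of the antioxidant response element, was in 8 of 31 (25.8%), against 13.6% of 27305 promoters. The core of the interferon-stimulated response element, GAAA and again GAAA with NN between, was in PSMB4, PSMA4 and PSMB10 (9.68%, against 3.65%). The stretches of PSMB10 and PSME2 are shown because these are interferon-associated genes described above, and that of PSMD12 because it fell most in KO-4, with the core in capitals.
PSMB10 (chr16:67936852-67936881, minus strand): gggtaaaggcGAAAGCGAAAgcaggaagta
PSME2 (chr14:24146619-24146648, minus strand): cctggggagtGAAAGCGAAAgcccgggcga
PSMD12 (chr17:67366724-67366752, minus strand): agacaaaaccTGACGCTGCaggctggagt
Other members had other combinations of letters and direction. PSMB9, which rose in KO-2, had the antioxidant core and not the interferon core. PSMA4, lower in KO-2 and KO-4, had the interferon core, and PSME1 and PSME2 had both. A match describes the letters of the window and shows no binding, and its tie to the changes was not tested.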

How the data were processed

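The submitters' processing notes name cutadapt 2.0, STAR 2.7.1a and hg38. How junction reads were counted and tested is not given in the sources used here. Per the file headers, the deposited tables hold lists of 3 retained and 3 spliced read counts for the clone and for WT, inclusion levels as a fraction, and the authors' p-values and FDR. Clone levels recomputed from counts and lengths differed from the deposited fraction by at most 0.0005. The deposited WT levels were not compared.

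Each intron was tested with a quasi-binomial F test (dispersion moderated with limma 3.58.1, R 4.3.3, floor at 1). Introns needed means of at least 10 retained and 10 spliced reads over all libraries compared, clone and WT together. Benjamini-Hochberg adjustment ran over all tested introns of a table, with a threshold of 0.05. Spliced reads over the 83066 introns in all 4 tables were summed per gene, kept at a mean of 50, scaled by median ratio and tested in limma (trend, 0.5 added to each count) over 15 libraries. This replaces a planned count test, because lists in 1 cell are no plain count column. Log2 changes are clone over WT. Alternatives were other minima and thresholds, limma on log2 odds, centring, the authors' p-values, library totals, single introns, voom weights (added after seeing the data) and each library left out. Simulated data were used to check both tests.

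Introns were called U12-type where the first 8 bases had up to 1 mismatch and the 9-base branch motif up to 2. Of 111143 introns 14.9% had both ends read. Named were all subunit introns past the threshold, the 2 most retained in WT per family among introns tested in all 4 comparisons, the catalytic and interferon-induced subunits, and 10 subunit and 10 pathway genes by smallest median adjusted p. Of these pathway genes 2 are not reported here. The members and lists were chosen with earlier results of these data known. An intron listed for several genes counts for each. Libraries are named by their order in the lists. The libraries of a group come from 3 independent experiments, per the series' design text.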

Additional observations from a re-analysis of the deposited data

Results flagged for a closer look

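The results below differed among the 4 clones in an F test over their libraries, with adjusted p-values given for each. For retention these were PSMA1 intron 5 (5.6e-10) and intron 6 (4.2e-08), PSMB7 intron 6 (0.00031) and intron 7 (0.031), PSMB10 intron 5 (0.00079), PSMD6 intron 2 of PSMD6-210 (0.0042), PSMD2 intron 6 (0.011), PSMD3 intron 5 (0.014), PSMC5 intron 4 of PSMC5-213 (0.014), PSMA3 intron 9 (0.041) and PSMA4 intron 3 of PSMA4-202 (0.041). Intron 5 of PSMB10 had 10.8%, 9.20% and 12.9% in KO-4, the lowest clone, against 12.9%, 17.9% and 17.0% in WT, and did not pass there (adjusted p = 0.078). Intron 2 of PSMD6-210 had means of 60.2%, 34.6%, 41.0% and 61.0% for the clones in order, against 48.2% for WT. Intron 7 of PSMB7 averaged 7.02%, 7.78%, 5.53% and 8.56%, against 6.26% in WT, so that neighbouring introns 6 and 7 both had KO-4 highest and KO-3 lowest of the clones.

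For summed spliced reads the named genes were PSMA4 (3.8e-06), PSMA5 (3.8e-05), PSMB1 (1.7e-05), PSMB2 (1.6e-05), PSMB5 (0.020), PSMB6 (7.1e-05), PSMB7 (2.3e-05), PSMB9 (4.8e-06), PSMC1 (5.0e-08), PSMD1 (2.0e-08), PSMD11 (5.3e-08) and PSMD6 (9.0e-07). Of all genes tested 75.4% differed among the clones, so these calls are no mark of the subunits.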

How the results depend on the processing

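PSMA1 intron 5 kept its direction and its call in all 4 clones under every alternative that gave a value except limma on log2 odds, where KO-3 and KO-4 were lost (0.95, adjusted p = 0.11, and 0.75, adjusted p = 0.17). Leaving out each library moved it between 1.58 and 1.73, 1.08 and 1.23, 0.87 and 1.02, and 0.66 and 0.81 in KO-1 to KO-4. It has no value among introns with no annotated exon inside.

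For the subunit introns higher in KO-1 to KO-4 (4, 4, 3 and 5), an adjusted p of 0.01 gave 2, 3, 1 and 3, limma on log2 odds 2, 3, 0 and 0 (0 also lower), centring 2, 3, 2 and 2, the authors' deposited adjusted p 7, 4, 2 and 6, and introns with no annotated exon inside 2, 1, 1 and 1. Lower were 1 in KO-4 with centring or no minimum of reads, and 1 each in KO-2 and KO-4 by the authors' p. Leaving out each library gave 2 to 6, 2 to 8, 1 to 4 and 2 to 13 higher. The introns that differ among clones fell to 3 by limma and 2 with no minimum.

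For subunit genes, library totals gave 0 higher and 6 lower in KO-3. With no annotated exon inside, 2 were lower in KO-1 and 1 higher in KO-3. At the intron with the most spliced reads 1, 1, 1 and 0 were higher and 1 lower in KO-3, beside 19 and 12 lower in KO-2 and KO-4. In KO-4 1 was higher with no minimum and with voom weights. Leaving out each library gave 2 to 9, 1 to 2, 0 to 5 and 0 to 2 higher, and 0 to 1 lower in KO-1, 19 to 25 in KO-2, 0 to 1 in KO-3 and 12 to 18 in KO-4. The causes were not tested.

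PSMC4 intron 9, called in no clone, turned to 0.22 and 0.15 in KO-2 and to 0.20 and 0.02 in KO-3 without the WT library listed 1st and without the clone's library listed 3rd, within ranges of -0.29 to 0.22 and -0.31 to 0.20. At the intron with the most spliced reads PSMB10 in KO-2 had -0.038 and UBE3C in KO-1 had -0.081. Over these settings the values of single named introns kept direction and side of the threshold 168 times and lost the call 53 times, and those of single genes 918 and 157 times. The tally of introns includes PSMC4 intron 9, which had no call to lose. That of genes includes left-out libraries of other clones, which bear on a comparison only through the common fit.

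No paired analysis was possible because the lists carry no replicate numbers. The planned edgeR and DESeq2 fits were not run. Introns with few retained reads were not tested, and the error terms cover the spread of 3 libraries.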
